A study of Mus musculus with 15 samples.

Results

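Transforming growth factor beta (TGF-beta) genes were followed in mouse left ventricle on Affymetrix MG-U74Av2 arrays. The genes were the ligands Tgfb1, Tgfb2 and Tgfb3, the receptors Tgfbr1 and Tgfbr2, and the latent binding proteins Ltbp1 and Ltbp2. They were taken as every probe set that the array annotation gives to a single one of these symbols, which gave 8 probe sets for 7 genes, Tgfb3 having 2, out of 12488 probe sets on the array. The study hybridised total RNA to 15 arrays under a title that names pressure overload and cardiac hypertrophy. Its groups were 3 female sham controls, 6 male sham controls, 3 TAC-operated females and 3 TAC-operated males. TAC usually stands for transverse aortic constriction in this field, a narrowing of the aorta that raises the load on the left ventricle. The labels do not spell it out, and they give no strain, age, time after the operation or array batch. They do not say whether each array held a separate mouse, so p-values here measure the spread between these samples, which may be technical.

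TGF-beta ligands are secreted bound to their own propeptide and, for most of the released protein, to a latent TGF-beta binding protein that holds the complex in the extracellular matrix. Once freed, a ligand binds the type II receptor Tgfbr2, which recruits and phosphorylates the type I receptor Tgfbr1, and the signal passes to Smad transcription factors. In the heart this pathway is best known for its action on fibroblasts and matrix genes.

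The values were probe-set intensities in the arbitrary units of the deposited table. Intensities of different probe sets do not give the relative amounts of their transcripts, so ranks and sums over probe sets below describe signal only. Array medians ran from 21.3 in female TAC 1 to 26.7, a ratio of 1.26. Intensities under 20 were raised to that floor before log2 was taken, since 42.4% to 48.4% of the probe sets lay below it on each array. The 7453 probe sets with the highest means were tested with limma and Benjamini-Hochberg adjustment, and a call means an adjusted p under 0.05. Of 5 listed load-responsive genes, limma called 3 for the operation over the sexes, against 0.322% of all tested probe sets. Those were Nppa, Acta1 and Ankrd1, which rose by 2.83, 2.11 and 1.10 on the log2 scale. Nppb (1.18) and Myh7 had positive differences that were not called. This list of load-responsive genes was chosen with earlier results of these data known, so its counts are descriptive. The 9 tested cardiomyocyte markers summed to between 30933 and 39441 on every array. RNA came from whole tissue, so fewer cells of a type and less RNA per cell cannot be told apart.

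Of the 8 TGF-beta probe sets, 3 were bright enough to be tested, and all were ligands. Tgfb1 (101918_at) had a mean above that of 70.2% of the probe sets, Tgfb3 (102751_at) above 61.7% and Tgfb2 (93300_at) above 50.6%. The other 5 were dimmer, with means above those of 8.86% to 30.9% of the probe sets. The second Tgfb3 probe set (161382_at), Tgfbr2 and Ltbp1 were below the floor on all 15 arrays, and Tgfbr1 and Ltbp2 were above it on 1 array each. The ligand findings below therefore rest on a single probe set per gene. The receptors and binding proteins lay almost entirely below the floor, which was set here and is not a measured background.

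**Figure D1:**
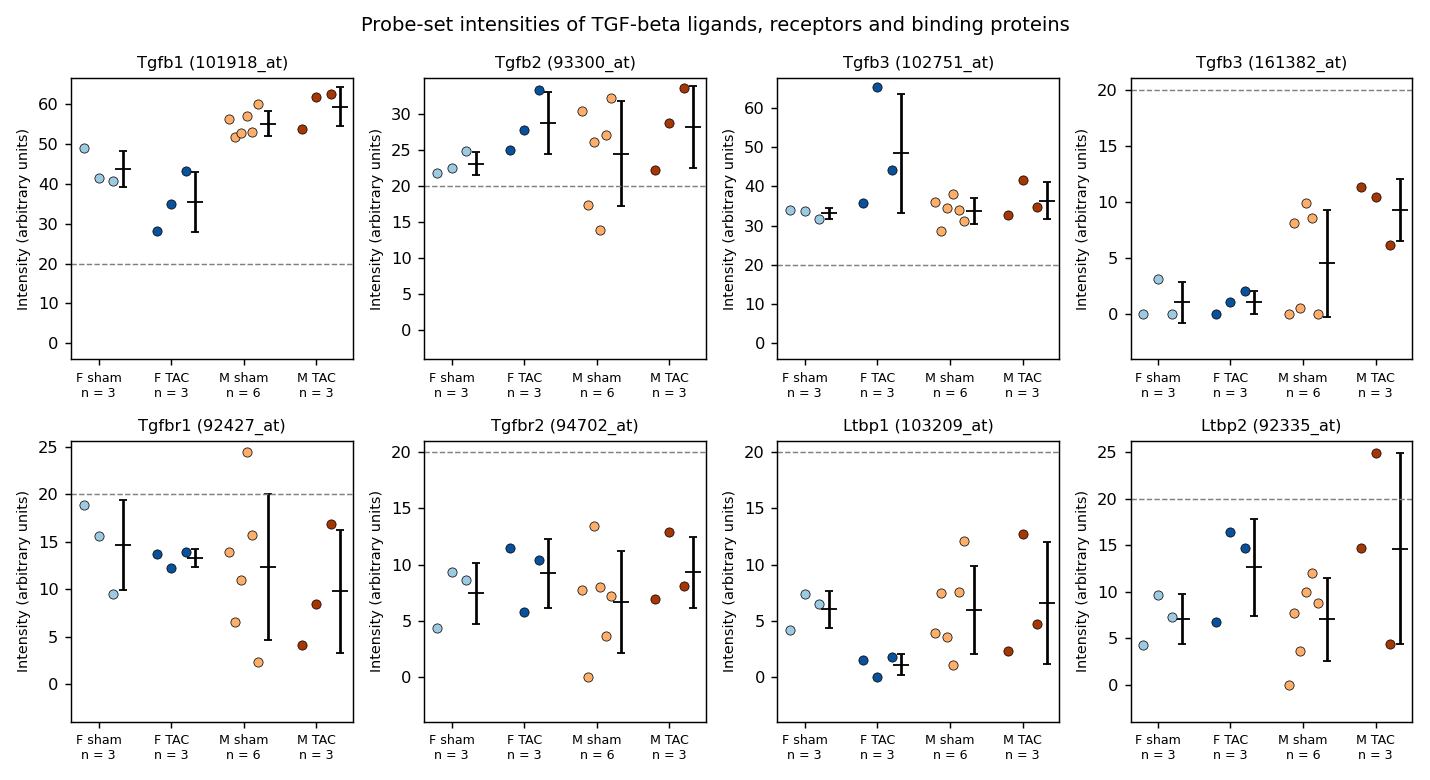
Intensity (arbitrary units) of the 8 TGF-beta probe sets on each of the 15 arrays, by sex and operation; points are arrays, bars the group mean and SD, and the dashed line the floor of 20. Tgfb1 is lower on all 6 female arrays than on all 9 male arrays, and the receptor and binding-protein probe sets lie almost entirely below the floor.

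The promoters of Tgfb1 and Tgfb2 are shown because these 2 ligands took different patterns over the arrays described below. Entries in the RefSeq table (GRCm38.p6) were found for 6 of the 7 genes, all but Tgfb3, and each covers 250 bases before to 50 after a gene's start. The Tgfb1 window is chr7:25686752-25687051 on the plus strand, and the Tgfb2 window is chr1:186705940-186706239 on the minus strand. Each is written 5′ to 3′ along its gene, with capitals marking every match on either strand to the TATA-box letters TATAAA, to the GC-box letters GGGCGG and to the cAMP-response letters TGACGTCA.
Tgfb1: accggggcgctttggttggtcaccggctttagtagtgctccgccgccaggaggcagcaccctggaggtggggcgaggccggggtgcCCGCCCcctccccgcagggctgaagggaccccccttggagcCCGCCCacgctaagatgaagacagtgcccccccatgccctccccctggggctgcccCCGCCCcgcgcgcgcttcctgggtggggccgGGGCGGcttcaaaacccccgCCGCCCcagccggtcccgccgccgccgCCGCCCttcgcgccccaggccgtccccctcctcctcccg
Tgfb2: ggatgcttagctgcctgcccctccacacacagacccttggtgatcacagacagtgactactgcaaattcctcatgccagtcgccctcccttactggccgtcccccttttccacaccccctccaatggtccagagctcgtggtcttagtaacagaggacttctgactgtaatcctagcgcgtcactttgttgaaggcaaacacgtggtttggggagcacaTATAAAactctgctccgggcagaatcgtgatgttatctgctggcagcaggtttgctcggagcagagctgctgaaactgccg
The Tgfb1 window held 6 matches to GGGCGG, counting its reverse complement CCGCCC, and none to TATAAA. The Tgfb2 window held 1 match to TATAAA, at position 220 from its 5′ end, and none to GGGCGG. Among all 32851 promoter windows of this length, 35.7% held GGGCGG and 13.6% held TATAAA. TGACGTCA was in 1.79% of windows and in neither of these. A match is a string of letters and no evidence of a bound factor, and no link between matches and array intensities was tested.

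Tgfb1, the ligand best known from platelets, macrophages and injured tissue, did not differ detectably with the operation. It was lower on every female array than on every male array, a difference that limma did not call with the deposited scaling and all arrays. Its intensity was 49.0, 41.5 and 40.7 in the female sham arrays and 28.1, 34.97 and 43.4 in the female TAC arrays. In male sham arrays it ran from 51.7 through a median of 54.7 to 60.02, and the male TAC arrays stood at 53.9, 61.9 and 62.6. The highest female array therefore lay below the lowest male array, whereas sham and TAC overlapped within each sex.

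Averaged over the sexes, the TAC minus sham difference of Tgfb1 was -0.11 ± 0.10 (SE) on the log2 scale, with a 95% interval of -0.33 to 0.11 (limma, adjusted p = 0.873). Its female difference was -0.32 ± 0.16 (limma adjusted p = 1.00), and its male difference was 0.11 ± 0.14 (adjusted p = 0.968). The difference between those 2 effects was -0.43 ± 0.21, which did not pass (limma adjusted p = 1.00). Only 2 of the 6 TAC arrays lay above the sham mean of their own sex, and both were male. Female TAC 1, the array with the lowest median of all, was also the lowest for Tgfb1, and without it the female difference was -0.16. Without female TAC 3 instead, the female difference was -0.48.

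The sex contrast in sham was planned, and those in TAC and over both operations were added after the Tgfb1 values had been seen, so their p-values are descriptive. In sham, Tgfb1 was at 43.7 ± 4.60 (SD, n = 3) in females and 55.2 ± 3.18 (n = 6) in males. The female minus male difference there was -0.34 ± 0.14 on the log2 scale (limma adjusted p = 0.974). After TAC the means were 35.5 ± 7.64 and 59.5 ± 4.86 (n = 3 each), and the difference was -0.76 ± 0.16 (limma adjusted p = 0.569). Over both operations Tgfb1 was 1.47-fold lower in females, a log2 difference of -0.55 ± 0.10 with a 95% interval of -0.77 to -0.33. It did not pass over all probe sets tested (limma adjusted p = 0.0881). An exact two-sided permutation of the sex labels within each operation gave p = 0.000595, the smallest that its 1680 arrangements allow, with no adjustment. The full separation of the sexes, seen before this contrast was added, already puts the statistic at its extreme. That p therefore restates the separation and adds no support to it.

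Female sham lay below male sham without overlap for 0.684% of tested probe sets, and female TAC below male TAC for 3.65%. All 6 female arrays lay below all 9 male arrays for 0.0268% of tested probe sets, that is for 2 of them, Tgfb1 and the cation channel gene Trpc4. The reverse held for 5 probe sets, or 0.0671%, which were those of Ddx3x, Eif2s3x, Xist, Rflnb and Smoc2. The first 3 of these are X-linked genes that escape or drive X inactivation. These genes were named after their values were seen. Of the 3 ligands, Tgfb1 alone had an unadjusted limma p under 0.05 for sex, in sham (4.71% of tested probe sets), in TAC (4.21%) and over both operations (6.68%), and limma called no probe set in the first 2 of these contrasts. Ddx3x was the 1 probe set called over both operations, 0.0134% of those tested, at 0.82 ± 0.11 (limma adjusted p = 0.0117).

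The call on Tgfb1 depended on how arrays were scaled. With quantile normalization the difference was -0.58 (limma adjusted p = 0.0203), and with arrays centred on a common median it was also -0.58 (limma adjusted p = 0.0185). Leaving out female TAC 3 gave -0.63 (limma adjusted p = 0.0475), and over all 23 alternatives the difference ran from -0.63 to -0.38 and the adjusted p from 0.0185 to 0.382. The title numbers 1 to 3 are female in both operations and the higher numbers male, so any order of handling that follows those numbers cannot be told apart from sex.

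Markers of cells known as sources of Tgfb1 showed the following levels. The 7 tested of 12 macrophage and leukocyte markers summed to 443 to 530.4 in female sham, 469 to 604 in male sham, 426 to 712 in female TAC and 490.4 to 527 in male TAC. Adgre1, Mrc1, Ptprc, Fcgr3 and Itgam of that list were below the floor on all arrays. The 1 tested platelet marker, Gp9, stood at 187 to 229, 182 to 245, 162 to 253 and 209.9 to 258 in the same order, with Pf4 below the floor throughout. The 8 tested of 10 fibroblast markers summed to 559 to 616 in female sham, 398 to 555 in male sham, 527 to 696 in female TAC and 549 to 582 in male TAC. Over both operations 6 of those 8 were higher in females, and none was called (4 at an unadjusted limma p under 0.05, 3 higher and S100a4 lower). Of all tested probe sets, 58.4% were higher in females in this contrast, and 6.68% had an unadjusted limma p under 0.05. The part of these cells in the Tgfb1 difference was not tested.

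**Figure D2:**
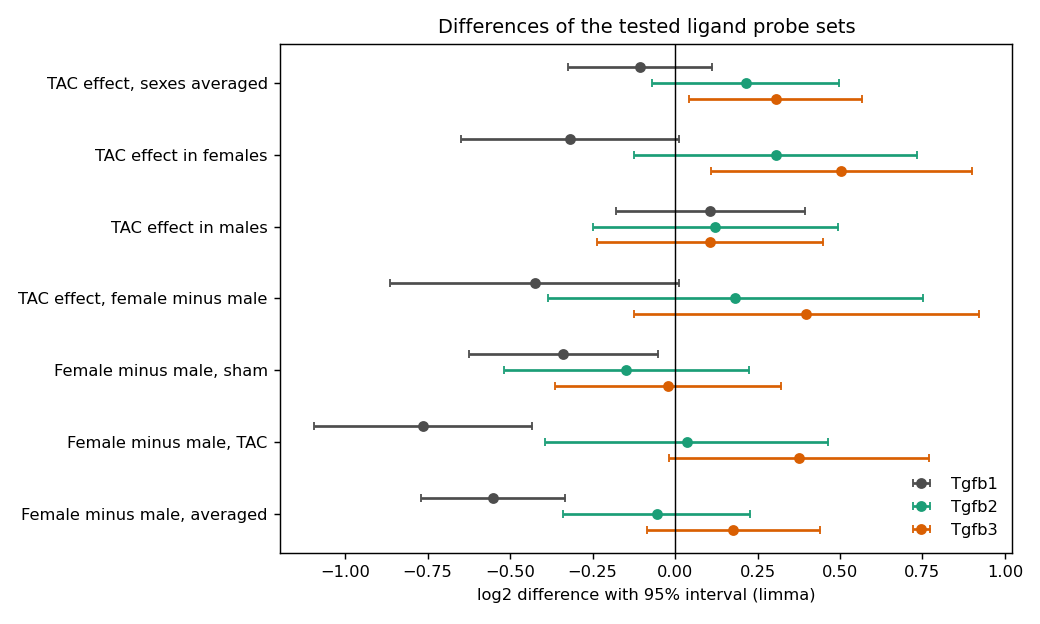
Log2 differences of the 3 tested ligand probe sets with 95% intervals from limma, for the operation (TAC minus sham) and for sex (female minus male). The intervals of Tgfb1 lie below 0 in the sex contrasts, and those of Tgfb3 lie above 0 for the operation averaged over the sexes and in females; no adjusted p of the 3 passed 0.05.

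Tgfb2, the ligand that acts in heart valve and septum formation, was slightly higher on most TAC arrays but did not pass the test. It stood at 21.8, 22.5 and 24.9 in female sham and at 24.9, 27.7 and 33.4 in female TAC. Male sham ran from 13.9 through a median of 26.5 to 32.2, with 2 arrays below the floor, and male TAC was at 22.2, 28.7 and 33.6. The female groups did not overlap, although the highest sham and lowest TAC array differ by less than 0.1 units, and the male groups overlapped almost fully.

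Tgfb2 differed by 0.21 ± 0.13 on the log2 scale over the sexes, with a 95% interval of -0.07 to 0.50 (limma adjusted p = 0.775; exact two-sided permutation p = 0.116). The female difference was 0.31 ± 0.20 and the male difference 0.12 ± 0.18. In the TAC group 5 of 6 arrays were above the sham mean of their sex. Tgfb2 showed no detectable sex difference, at -0.06 ± 0.13 with a 95% interval of -0.34 to 0.23.

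Tgfb3, the third ligand, had the largest TAC difference of the 3 ligands, which did not pass the test. It stood at 33.9, 33.8 and 31.6 in female sham and at 35.9, 65.2 and 44.1 in female TAC. Male sham ran from 28.6 through a median of 34.2 to 38.2, and male TAC was at 32.7, 41.6 and 34.7. Every female TAC array was above every female sham array, and the male groups overlapped.

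Over the sexes the Tgfb3 difference was 0.30 ± 0.12 on the log2 scale, 1.24-fold, with a 95% interval of 0.04 to 0.57. It did not pass over all probe sets tested (limma adjusted p = 0.553), and the exact two-sided permutation p, unadjusted, was 0.0375. The female difference was 0.50 ± 0.19, 1.42-fold (limma adjusted p = 0.926), and the male difference 0.11 ± 0.16 (adjusted p = 0.973). Those effects differed by 0.40 ± 0.25 (limma adjusted p = 1.00), so a larger effect in females was not shown. Without female TAC 2, the array at 65.2, the difference over the sexes was 0.19 and the female one 0.27. The second Tgfb3 probe set cannot check this, since it read between 0 and 11.4 on all arrays.

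Set against the whole array, 0 of the 3 ligand probe sets was called for the operation over the sexes, where 0.322% of tested probe sets were, and 1 of the 3 (Tgfb3) had an unadjusted limma p under 0.05, where 7.51% did. In females limma called 0 of the 3, against 0.0805% of all, and 1 (Tgfb3) had an unadjusted p under 0.05, against 4.59%. In males it called 0 of the 3, against 0.134%, and 0 had an unadjusted p under 0.05, against 6.2%. Female TAC lay above female sham without overlap for 2 of the 3 ligands, Tgfb2 and Tgfb3, and for 3.14% of all tested probe sets. Male TAC lay above male sham for 0 of the 3 and for 1.62%. The difference of the effects between sexes had no call over all probe sets, and 2.56% of them had an unadjusted p under 0.05, with 0 of the 3 ligands among them.

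The 3 ligands did not vary together over the 15 arrays. Pearson's r of floored log2 values was 0.16 between Tgfb1 and Tgfb2, -0.34 between Tgfb1 and Tgfb3, and 0.30 between Tgfb2 and Tgfb3. These are descriptions over arrays that share the 4 groups and the scaling of each array. Among 5657 other genes, the pattern nearest to that of Tgfb1 was Hccs (r = 0.87), which encodes a mitochondrial haem lyase on the X chromosome, followed by Plk3 (0.82) and Pax4 (0.81). Around group means these were 0.70, 0.82 and 0.47, and without female TAC 1 and 2 they were 0.71, 0.48 and 0.60. Nearest to Tgfb2 were Tnfrsf1a (0.81), a tumour necrosis factor receptor, Ostc (0.80) and the glycolytic enzyme gene Pgam1 (0.76). Around group means these were 0.80, 0.85 and 0.72, and without male sham 5 and 7 they were 0.84, 0.70 and 0.75. Nearest to Tgfb3 were Eid1 (0.89), Myo10 (0.86) and Ints3 (0.86). Around group means these were 0.84, 0.90 and 0.80, but without female TAC 2 and 3 they were 0.47, 0.55 and -0.13, so those likenesses rest on 2 arrays. For each ligand these are the 3 highest of 5657 correlations over 15 arrays, so a high r is partly a product of that choice.

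The type I receptor Tgfbr1, the kinase that phosphorylates Smads, was dim in every group. It read 18.9, 15.6 and 9.49 in female sham, 2.34 to 24.5 with a median of 12.5 in male sham, 13.7, 12.2 and 13.9 in female TAC, and 4.08, 8.38 and 16.9 in male TAC. The groups overlapped, and the array above the floor was male sham 7. The type II receptor Tgfbr2 read 4.36, 9.34 and 8.63 in female sham, 0 to 13.4 with a median of 7.45 in male sham, 11.5, 5.76 and 10.4 in female TAC, and 6.94, 12.9 and 8.13 in male TAC. For neither receptor can a difference be read at this intensity. With a lower floor of 5.01 and no filter, a combination chosen after seeing the data, the TAC minus sham difference was -0.21 ± 0.37 for Tgfbr1 (limma adjusted p = 0.952) and 0.28 ± 0.26 for Tgfbr2 (limma adjusted p = 0.89).

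Of the binding proteins, Ltbp1 and Ltbp2 were as dim as the receptors. Ltbp1, which tethers latent ligand to matrix fibres, read 4.17, 7.34 and 6.52 in female sham and 1.495, 0 and 1.75 in female TAC. It read 1.05 to 12.1 with a median of 5.66 in male sham, and 2.27, 12.7 and 4.71 in male TAC. Female TAC lay below female sham without overlap, as 4.77% of the untested probe sets did, and in males the groups overlapped. With the lower floor, the difference over the sexes was -0.13 ± 0.25 (limma adjusted p = 0.953).

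Ltbp2, a matrix relative that does not bind the latent complex, had its highest values after TAC. It read 4.24, 9.67 and 7.25 in female sham, 0 to 12.0 with a median of 8.22 in male sham, 6.70, 16.4 and 14.7 in female TAC, and 14.7, 24.9 and 4.31 in male TAC. The 2 higher arrays of each TAC group lay above all 9 sham arrays, and the other TAC arrays lay within the sham range. It was below the floor on 14 of 15 arrays, so no difference can be read at this intensity. With the lower floor the value was 0.70 ± 0.36 (limma adjusted p = 0.776; exact two-sided permutation p = 0.0690), and with the floor of 20 it was 0.05.

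The rest of the pathway was read from lists of related genes, each by its brightest tested probe set. Over all tested probe sets the median TAC effect was -0.03 on the log2 scale, and 41.8% were above 0, with 0.322% called and 7.51% at an unadjusted p under 0.05. Each list below is described by its counts and median, with no test of the list. The lists were chosen with earlier results of these data known, so a share called above that of all probe sets is no evidence about a list.

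Among other ligands of the superfamily, 10 of 19 listed genes were tested. Of these 4 had a positive and 6 a negative difference, with a median of -0.05. Centring arrays on a common median made it 0.01, and moved the median of all tested probe sets from -0.03 to 0.02. Limma called 0 of the 10 (2 at an unadjusted p under 0.05). The nearest was Gdf3, which stood at 69.4 ± 8.47 in female sham, 68.7 ± 9.65 in male sham, 92.0 ± 11.8 in female TAC and 105 ± 17.2 in male TAC. All 6 TAC arrays were above the sham mean of their sex, and the difference was 0.51 ± 0.12 (limma adjusted p = 0.0871). Amh differed by -0.26 ± 0.10 (limma adjusted p = 0.483), Bmp6 by 0.28 and Inhba by -0.16.

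Other receptors and coreceptors gave 7 tested of 12 listed genes, 4 positive and 3 negative, with a median of 0.04, and limma called 0 (1 at an unadjusted p under 0.05). That gene was Bmpr2, the type II receptor for bone morphogenetic proteins, at 0.43 ± 0.15 (limma adjusted p = 0.441). Acvrl1 gave 0.15 on its brightest probe set and -0.16 and -0.22 on its other probe sets, so its direction was not settled.

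For storage and activation of the latent ligand, 17 of 29 listed genes were tested, 9 positive and 8 negative, with a median of 0.06, and limma called 0 (2 at an unadjusted p under 0.05). Those were the elastic-fibre protein gene Fbln2 at 0.42 ± 0.12 (limma adjusted p = 0.236; called with arrays centred on a common median, at 0.48 and adjusted p = 0.0479) and the crosslinking enzyme gene Tgm2 at 0.31 ± 0.12 (limma adjusted p = 0.516). The bright relatives of the dim Ltbp1 and Ltbp2 were Ltbp4 at 0.29 ± 0.15 (limma adjusted p = 0.686) and Ltbp3 at -0.12 ± 0.16 (limma adjusted p = 0.911). Ltbp4 stood at 233 ± 27.7 in female sham, 161 ± 32.7 in male sham, 264 ± 76.4 in female TAC and 215 ± 10.1 in male TAC.

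Among extracellular antagonists of TGF-beta and bone morphogenetic proteins, 8 of 12 listed genes were tested, 4 in each direction, with a median of 0.10. Limma called 1, against 0.322% of all tested probe sets. This was Bgn, which encodes biglycan, a small matrix proteoglycan that binds TGF-beta. Bgn stood at 283 to 304 in female sham and 192 to 289 in male sham. In TAC it stood at 420.4 to 678 in females and 344 to 486 in males. Its TAC arrays lay above its sham arrays without overlap in each sex, as in females 3.14% and in males 1.62% of tested probe sets did. Bgn rose by 0.80 ± 0.13 on the log2 scale, 1.74-fold (limma adjusted p = 0.00619), while its other probe set gave 0.31 (limma adjusted p = 0.611). With the replicate block in both sexes the difference was 0.82 and was not called (limma adjusted p = 0.0591). Decorin (Dcn), its relative, was at 878 ± 59.6 and 814 ± 158 in female and male sham and at 1197 ± 283 and 1216 ± 117 in TAC. Its difference of 0.51 ± 0.13 was higher in 6 of 6 TAC arrays but was not called (limma adjusted p = 0.162), except with quantile normalization (0.0426), centred arrays (0.0272) or array weights (0.0272).

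Inside the cell, 13 of 23 listed Smads and Smad regulators were tested, 7 positive and 6 negative, with a median of 0.06, and limma called 0 of them (0 at an unadjusted p under 0.05). The nearest was the Smad corepressor Ski at 0.22 ± 0.12 (limma adjusted p = 0.707), which was below the floor on 6 of 9 sham and 3 of 6 TAC arrays and ran from 0.12 with array weights to 0.52 with the lower floor. The inhibitory Smad6 was at 0.13, the coactivator Crebbp at -0.22 (-0.35 to -0.13 with an array left out) and the ubiquitin ligase Stub1 at -0.15, or -0.078 without male sham 7. Of 10 listed genes of signalling outside the Smads, 4 were tested, 3 positive and 1 negative, and limma called 0 (0 at an unadjusted p under 0.05). These were Rhoa at 0.11, Tab2 at 0.04, Rock1 at 0.03 and Traf6 at -0.06.

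Among genes that TGF-beta is known to induce or repress, 23 of 34 listed genes were tested, 14 positive and 9 negative, with a median of 0.10. Limma called 2, Postn and Ccn2, and 5 had an unadjusted p under 0.05, all higher, against 0.322% and 7.51% of all tested probe sets. The list was chosen with earlier results of these data known, so these shares are no test of it. Postn encodes periostin, a matricellular protein of activated fibroblasts. It stood at 30.3, 28.5 and 37.5 in female sham, at 14.0 to 35.3 in male sham, at 58.8, 162 and 79.6 in female TAC and at 51.0, 71.1 and 61.8 in male TAC. It rose by 1.45 ± 0.19 on the log2 scale, 2.73-fold (limma adjusted p = 0.00109). In male sham 2 arrays were below the floor. The Postn difference ran from 1.03 to 1.53 over the processing alternatives (limma adjusted p up to 0.0345).

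Ccn2, connective tissue growth factor, stood at 58.3, 69.1 and 57.5 in female sham, at 44.1 to 85.5 in male sham, at 99.4, 190.0 and 234 in female TAC and at 130.1, 144 and 125 in male TAC. It rose by 1.25 ± 0.18, 2.38-fold (limma adjusted p = 0.00186). For both Postn and Ccn2, every TAC array lay above every sham array of its sex, as in females 3.14% and in males 1.62% of tested probe sets did. The collagen gene Col1a1 differed by 0.44 ± 0.17 (limma adjusted p = 0.515), by 0.29 without female TAC 2 and by 0.22 on its other probe set, and the crosslinking enzyme gene Loxl1 by 0.52 (limma adjusted p = 0.327).

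**Figure D3:**
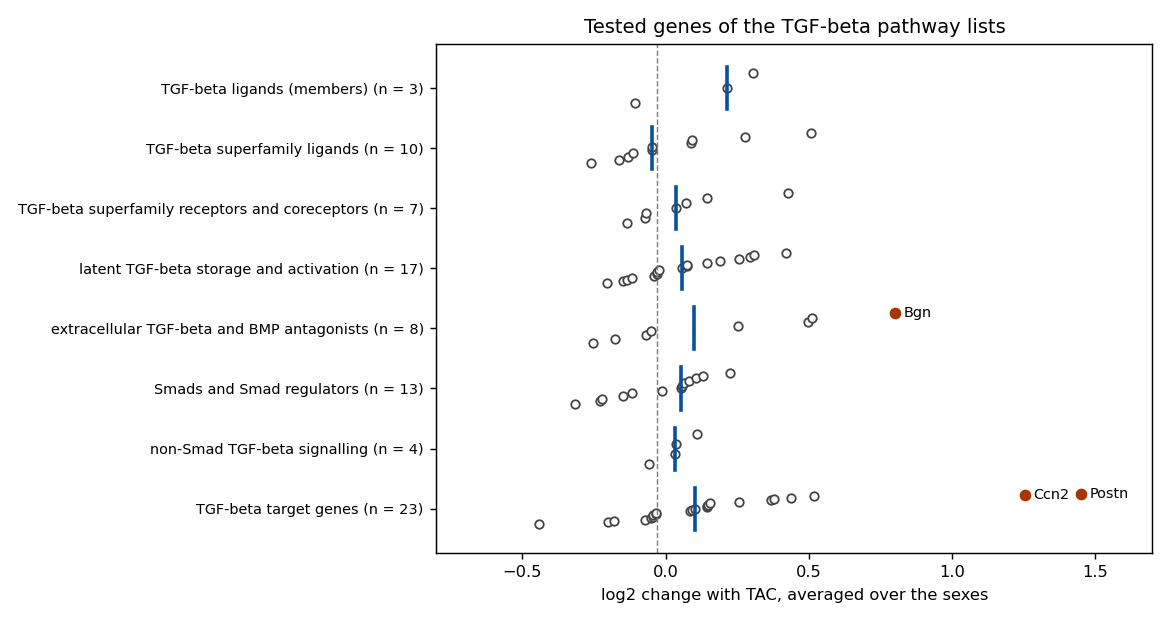
TAC effect averaged over the sexes (log2) of each tested gene of the pathway lists; open points did not pass, filled points are the called genes Bgn, Ccn2 and Postn, blue bars are list medians and the dashed line is the median of all tested probe sets (-0.03). The 3 ligands of the TGF-beta family proper lie between -0.11 and 0.30.

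The target genes and the ligands did not keep the same order over the TAC arrays. Female TAC 2 had the highest Postn, Bgn and Tgfb3 of the 6 arrays relative to the sham mean of its sex, at 2.34, 1.21 and 0.98 on the log2 scale. Its Tgfb1 value on the same scale was -0.32. Female TAC 1 had the lowest Postn, Ccn2, Bgn and Tgfb1, at 0.88, 0.70, 0.52 and -0.63. The order was not particular to these genes: female TAC 1 was also the lowest and female TAC 2 the highest for Rhoa, Rock1 and Tab2. For Gdf3 and Acta1 it was otherwise. Female TAC 1 also had the lowest median of all arrays, and the deposited scaling was kept. The part of array scaling in this order was not tested. All are values of single arrays, and the arrays of a sex share the same sham mean.

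**Figure D4:**
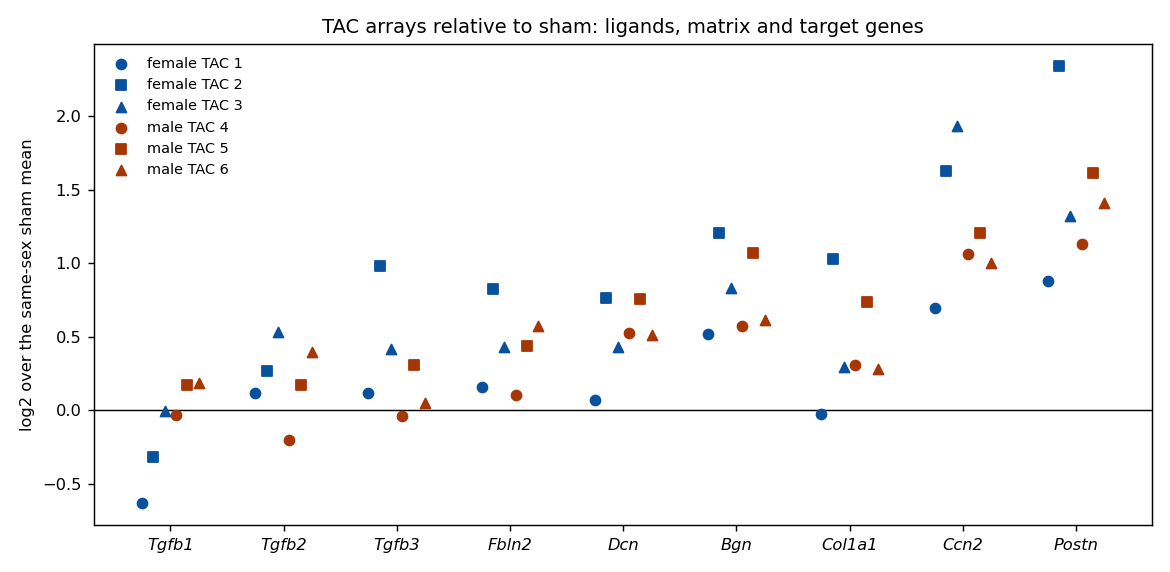
Each TAC array's log2 value minus the mean of the sham arrays of its sex, for the 3 ligands and 6 matrix or target genes. All 6 TAC arrays lie above 0 for Fbln2, Dcn, Bgn, Ccn2 and Postn, while Tgfb1 lies above 0 on 2 of the 6. The matrix and target genes were named for a call or small p in the TAC effect, so their position is no separate result. Among named genes not shown, Gdf3 and Tgm2 lie above 0 on 6 of 6 arrays, and Amh and Bmpr1b on 0 of 6.

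Markers of other cells were read over the same contrast. Of the 8 tested fibroblast markers limma called 0, but 4 had an unadjusted p under 0.05 where 7.51% of all tested probe sets did. Mgp (1.05 ± 0.25, limma adjusted p = 0.0982) and Lum (0.57 ± 0.12, limma adjusted p = 0.0585) were the higher ones, and Thy1 (-0.29) and Vim (-0.28) the lower ones. The fibroblast median was 0.03 over the sexes, -0.12 in females with 6 of 8 negative, and 0.19 in males with 6 of 8 positive. Among all tested probe sets, 40.6% had a positive female difference and 47.2% a positive male one. When the female and male effects were compared, limma called 0 of the 8 markers (0 at an unadjusted p under 0.05). A sex difference in the response of these markers was therefore not shown. For the effect averaged over the sexes, the smooth muscle median was -0.18, with 4 of 5 negative, and limma called 0 (0 at an unadjusted p under 0.05). The macrophage and leukocyte median was 0.01 and the endothelial median 0.00, each over 7 genes, and limma called 0 in either list (0 at an unadjusted p under 0.05). The part of these cells in the rise of Postn, Ccn2 and Bgn was not tested.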

How the data were processed

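Intensity values of 15 arrays of mouse left ventricle were deposited by the authors in 1 table; the software and scaling behind them were not given in the sources used here. Gene names came from the platform annotation, updated through RefSeq GRCm38.p6, with 10817 of 10833 single-symbol probe sets matched. After 66 control probe sets were removed, values under 20 were raised to 20 (the 30th percentile was 11.9), log2 was taken, and the brightest 60% of probe sets by mean were fitted with limma 3.58.1 in R 4.3.3, with a mean per sex and operation. The script was tested on simulated data. No pair of arrays was identical. Same-numbered sham and TAC arrays correlated, as deviations from group means, at 0.24, 0.27 and 0.12 in females, all over 0.1, and at 0.06, -0.08 and 0.01 in males; the labels do not say what the numbers share. Exact permutation exchanged labels within sex or within operation. Genes were named as members, as called list genes, as the 4 list genes of smallest p, or as the 3 genes most like each ligand. Ltbp3, the fibroblast markers and the genes separated by sex were named after their values were seen. Members and lists were chosen with earlier results of these data known. Marker lists with no call in the effect averaged over the sexes were also those for T cells (1 tested), platelets (1), red blood cells (3), fat cells (1) and epicardium (2); in the atrial list (3) only Nppa was called. Tried alternatives were the scaling, floor, filter, variance model, pairing and each array left out.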

Additional observations from a re-analysis of the deposited data

Results flagged for a closer look

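In 40 groups of 6 male sham arrays, 1 per named probe set, the gap between the most extreme array and its neighbour was set against the range of the group, and 2 exceeded the critical ratio of 0.625. Chance flags about 1 in 20 groups. Stub1, a ubiquitin ligase that targets Smads, read 250.8 in male sham 7, where the next array read 152 and the lowest 123. Col1a1, the collagen gene on the target list, read 65.5 in male sham 6, where the next array read 106 and the highest 119. No ligand, receptor or binding-protein group held such an array.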

How the results depend on the processing

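No TGF-beta probe set was called for the operation, its difference between sexes, or sex in sham or in TAC, in any alternative tried. Over both operations 1 (Tgfb1) was called for sex with quantile normalization and 1 with centred arrays, and 0 to 1 with an array left out. All probe sets called for the operation over the sexes numbered 24, against 45 with quantile normalization, 45 with centred arrays, 12 with a lower floor, 13 with no filter, 68 with array weights, 8 with the replicate block in both sexes and 12 to 29 with an array left out, the fewest without male TAC 5. In females 6 became 10 with trended, robust variances, 36 with weights, 3 with the block and 2 to 8 with an array left out, the fewest without female sham 1. In males 10 became 18 when centred, 3 with the lower floor, 6 with an offset, 4 with no filter, 16 with robust variances, 3 with the block and 3 to 12 with an array left out, the fewest without male TAC 5. For sex in sham 0 became 2 with no filter, 1 with robust variances and 2 with weights. For sex over both operations, a contrast chosen after seeing the data, 1 became 6 with quantile normalization, 6 when centred, 3 with an offset, 0 with no filter, 3 with a stricter filter, 3 with robust variances, 5 with weights and 0 to 4 with an array left out. The block in females alone, where numbers correlated, gave 23 over the sexes and changed no ligand call; with the block in both sexes Bgn was not called (limma adjusted p = 0.0591), at 0.82 against 0.80 without it. Array weights turned Tgfb1 to 0.020 for the operation, Traf6 to 0.067 and the sex difference of Tgfb2 to 0.034, which the lower floor also turned, to 0.0048. Leaving out an array turned the sign at 1 end of these ranges: Tgfb2 in males -0.015 to 0.29, Tgfb2 by sex -0.14 to 0.013 over both operations and -0.13 to 0.17 in TAC, Tgfb3 by sex in sham -0.068 to 0.015, Acvr1b -0.013 to 0.15, Rock1 -0.062 to 0.16, Tab2 -0.065 to 0.14 and Traf6 -0.17 to 0.015. Female TAC 2 carried Tgfb3, which ran from 0.19 to 0.40 over the sexes. The causes were not tested. The receptors and binding proteins lay almost entirely below the floor, and their intensity over background was not measured.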
